A study of Mus musculus with 16 samples.

Results

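The core cardiac transcription factors examined here were the products of 10 genes, *Gata4*, *Gata6*, *Nkx2-5*, *Tbx5*, *Tbx20*, *Hand1*, *Hand2*, *Mef2a*, *Mef2c* and *Hey2*. They were taken as a list of symbols and matched to 10 of the 51912 gene identifiers in the deposited count table. The rule used no measured value, but the list was chosen with earlier results of these data known. All 10 passed the filter on low counts (10 or more counts summed over each group) and were among the 20159 genes tested. RNA was sequenced from whole ventricles of 16 neonatal mice, 4 in each of 4 groups. Sham-operated groups were WT SH (WT control) and KO SH (whole-body *Lrrc10*-/-). Infarcted groups, here called post-MI for myocardial infarction, were WT MI and KO MI, of the same genotypes. Surgery took place on postnatal day 1, and ventricles were collected at postnatal day 8. The infarct was made by ligating the left anterior descending artery, whereas sham mice had the chest opened and closed without exposure of the heart. WT mice were C57BL/6J from a commercial supplier and the *Lrrc10*-/- line was made in the C57BL/6 background, so that genotype cannot be told apart from colony. The comparisons ask whether the regulators of cardiac gene expression differed with loss of LRRC10, a cardiomyocyte protein, in the uninjured and in the infarcted heart.

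These factors belong to families that specify the heart in the embryo and remain expressed in cardiac muscle after birth. GATA4 and GATA6 are zinc finger proteins, NKX2-5 is a homeodomain protein, TBX5 and TBX20 carry a T-box, HAND1 and HAND2 are basic helix-loop-helix (bHLH) proteins and MEF2A and MEF2C are MADS-box proteins. They occupy cardiac enhancers together and activate genes of the sarcomere, of conduction and of the natriuretic peptides. HEY2 is a bHLH repressor induced by Notch signaling and marks the compact layer of the ventricular wall.

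Total counts per library ranged from 33783874 to 57470159, with a median of 45092798. Levels are given as counts per 1000000 (CPM) of the TMM-scaled library size, and 3 counts, taken as the floor, corresponded to 0.0577 to 0.0858 CPM. *Lrrc10* had 0 counts in each of the 8 *Lrrc10*-/- libraries, and 26.3 to 35.6 CPM in the WT libraries. Although the study's methods describe equal numbers of male and female mice, 0 of 4 WT SH libraries had over 100 CPM of the female-expressed transcript *Xist*, against 2 of 4 in each of the other groups. Comparisons with WT SH are therefore partly comparisons of sex. KO MI replicates 2 and 7 also stood apart, with 78.9 and 128 CPM summed over 14 skeletal muscle genes, against 1.70 to 14.1 CPM in the other libraries. Between 1 and 5 of these genes were at 0 in each library. As a check for heart muscle, 10 cardiomyocyte markers were examined. All were detected in every library, and they summed to between 52835 and 69763 CPM. For the ventricle label, 5 atrial markers were summed, which gave from 15.4 CPM in KO SH replicate 1 to 116 CPM in KO MI replicate 3. In bulk ventricle, fewer cells of a type and less RNA per cell cannot be told apart.

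In levels per length, the members fell into a wide order. Dividing CPM by the length of merged exons (GENCODE M39) gave 28.2 ± 0.783 CPM per kb for *Mef2a* (mean ± SD, n = 4) in WT SH, the highest of the 10. *Hand2* followed at 20.5 ± 2.59 CPM per kb and *Tbx20* at 18.7 ± 1.58 CPM per kb, and the libraries of these neighbours overlapped. *Gata4* stood apart at 10.2 ± 0.550 CPM per kb, as did *Mef2c* at 7.15 ± 0.182 CPM per kb. *Nkx2-5* and *Tbx5* overlapped, at 6.25 ± 0.488 and 6.10 ± 1.04 CPM per kb. They were followed by *Gata6* at 4.87 ± 0.314 CPM per kb and *Hey2* at 3.01 ± 0.533 CPM per kb. *Hand1* was almost absent, at 0.0349 ± 0.0198 CPM per kb. Among neighbours in this order, only *Hand2* and *Tbx20*, and *Nkx2-5* and *Tbx5*, overlapped in WT SH. *Mef2a*, *Gata4*, *Mef2c*, *Nkx2-5* and *Hand1* held the same rank in all 4 groups. *Hey2* was rank 9 in both WT groups and rank 7 in both *Lrrc10*-/- groups. Over all 16 libraries the coefficient of variation of CPM was lowest for *Mef2c* (4.87%) and was 37.1% for *Hey2* and 69.3% for *Hand1*.

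**Figure D1:**
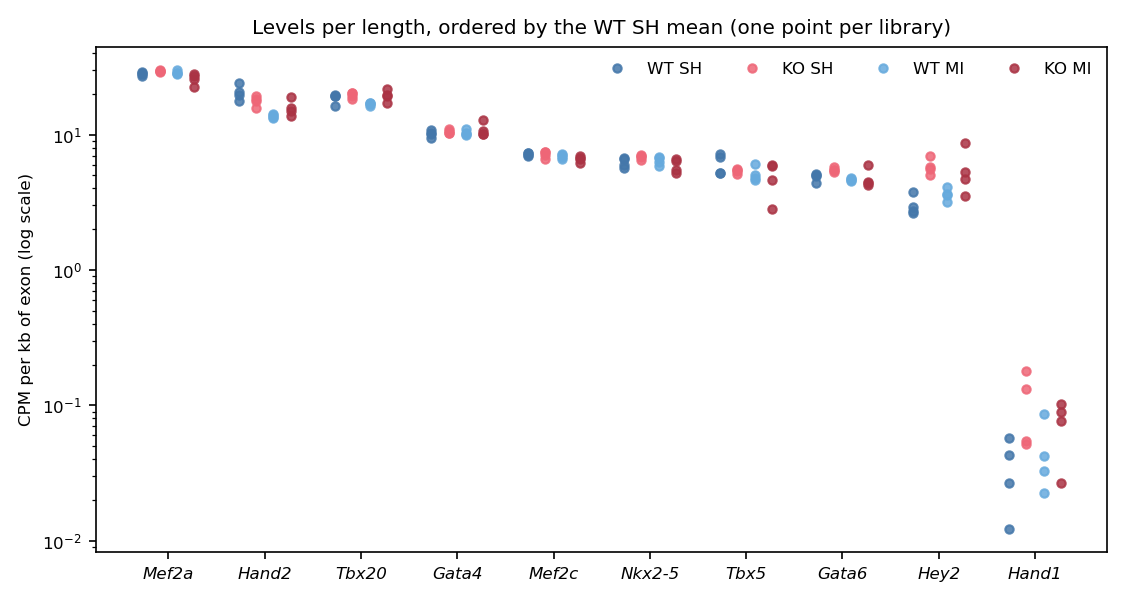
Level of each factor gene per kb of merged exon (CPM per kb, log axis), with a point for each library coloured by group and genes ordered by the mean of WT SH. Of the 10 genes, 9 lie between 2.63 and 30.0 CPM per kb, and *Hand1* lies below them at 0.0121 to 0.181 CPM per kb.

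Most core cardiac factor genes differed little between groups. A gene was called when its adjusted p (quasi-likelihood test of edgeR, adjusted by Benjamini-Hochberg over all genes tested) was under 0.1 and its absolute log2 fold change was at least 0.5, the study's thresholds. After sham surgery *Hey2* was called, higher in *Lrrc10*-/- than in WT, as 1 of 10 members, beside 5.01% of all genes tested. Post-MI, 0 of 10 members were called between genotypes, beside 1.73% of all genes. Following MI in WT mice *Hand2* was called, lower than after sham, as 1 of 10, beside 2.78% of all genes. Following MI in *Lrrc10*-/- mice 0 of 10 were called, beside 7.42% of all genes. By adjusted p alone, without a minimum fold change, the same members passed, with the addition of *Mef2a* in KO MI against KO SH. Of all genes, 12.3% passed that looser rule between genotypes after sham and 3.07% post-MI. Between MI and sham, 5.31% passed in WT mice and 17.5% in *Lrrc10*-/- mice. In the interaction, which compares the KO effect post-MI with that after sham, 0 of 10 members and 0.0248% of all genes were called. Where 0 members were called by edgeR, unadjusted p-values under 0.05 numbered 3 between genotypes post-MI, 4 between MI and sham in *Lrrc10*-/- mice and 2 in the interaction. Over all 20159 genes tested, such p-values numbered 2503, 5289 and 2745 in the same order. DESeq2 also called 0 members in these comparisons.

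The median log2 fold change of the members was 0.07 in KO SH against WT SH, beside 0.01 over all genes tested. It was 0.06 in KO MI against WT MI, beside 0.01 over all genes, and -0.01 in WT MI against WT SH, beside -0.00. In KO MI against KO SH it was -0.16, beside -0.01. There 9 of 10 estimates were below 0 and 1 above, while 48.1% of all genes were above 0. With DESeq2 size factors, 8 of 10 were below 0. The comparisons share groups and the members share libraries, so neither the comparisons nor the estimates are independent. Between genotypes, *Gata6*, *Mef2a* and *Hey2* did not overlap after sham (3 of 10 members, 18.5% of all genes), and *Tbx20* did not post-MI (1 of 10, 6.47% of all genes). Between MI and sham, *Hand2* did not overlap in WT mice (1 of 10, 12.1% of all genes) and *Mef2a* did not in *Lrrc10*-/- mice (1 of 10, 14.9% of all genes).

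**Figure D2:**
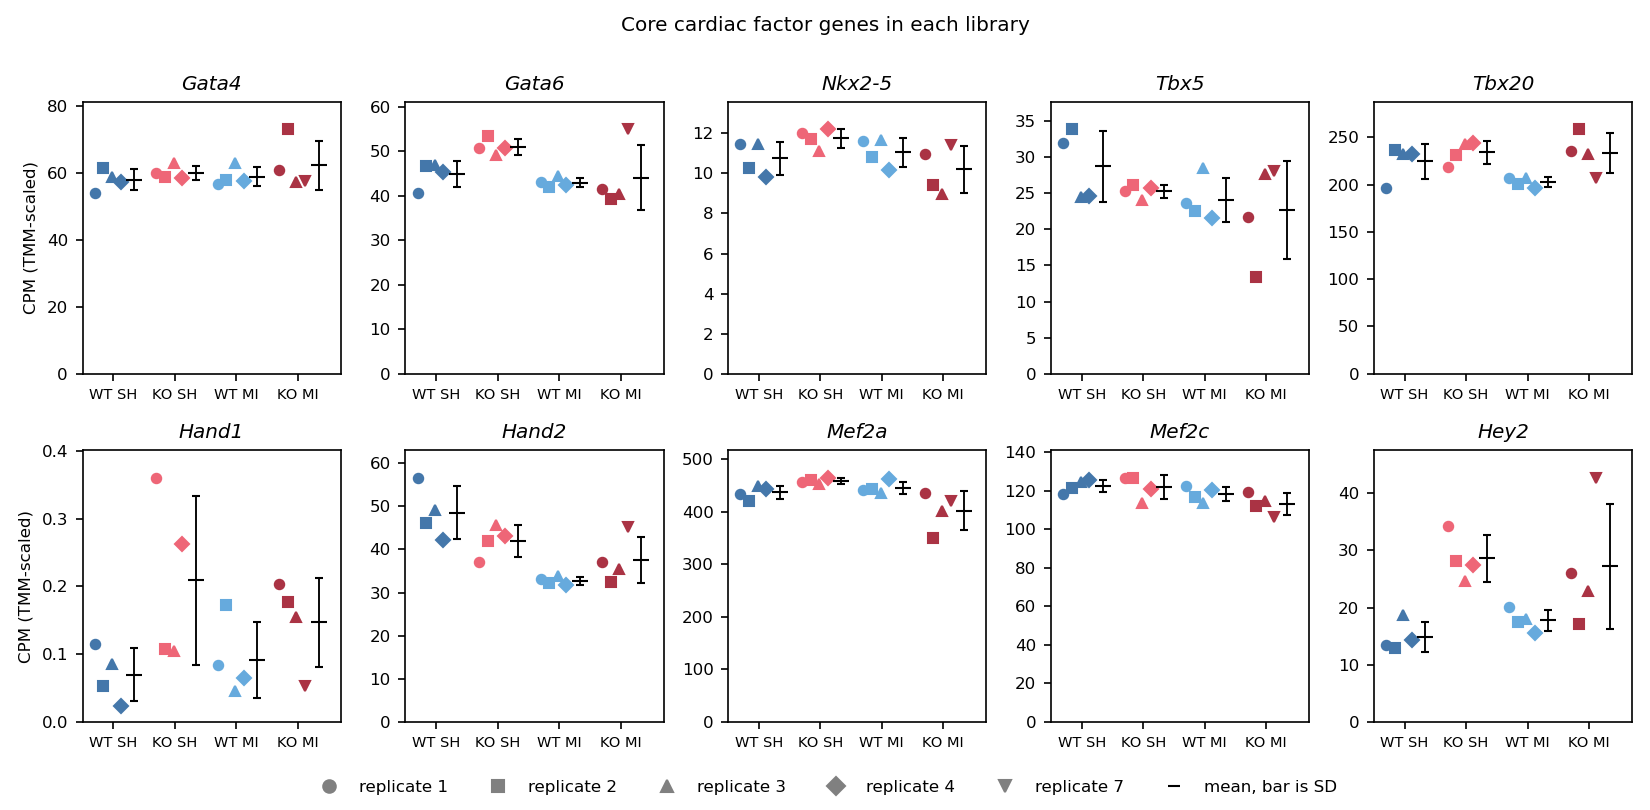
CPM of each of the 10 genes in each of the 16 libraries, with a panel per gene, a linear axis from 0, marker shape for the replicate number and a black bar for the mean ± SD of 4 libraries. *Hey2* in KO SH (24.6 to 34.4 CPM) lies above all WT SH libraries, *Hand2* in WT MI (31.6 to 33.7 CPM) lies below all WT SH libraries, and most other panels show groups at like levels.

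**Figure D3:**
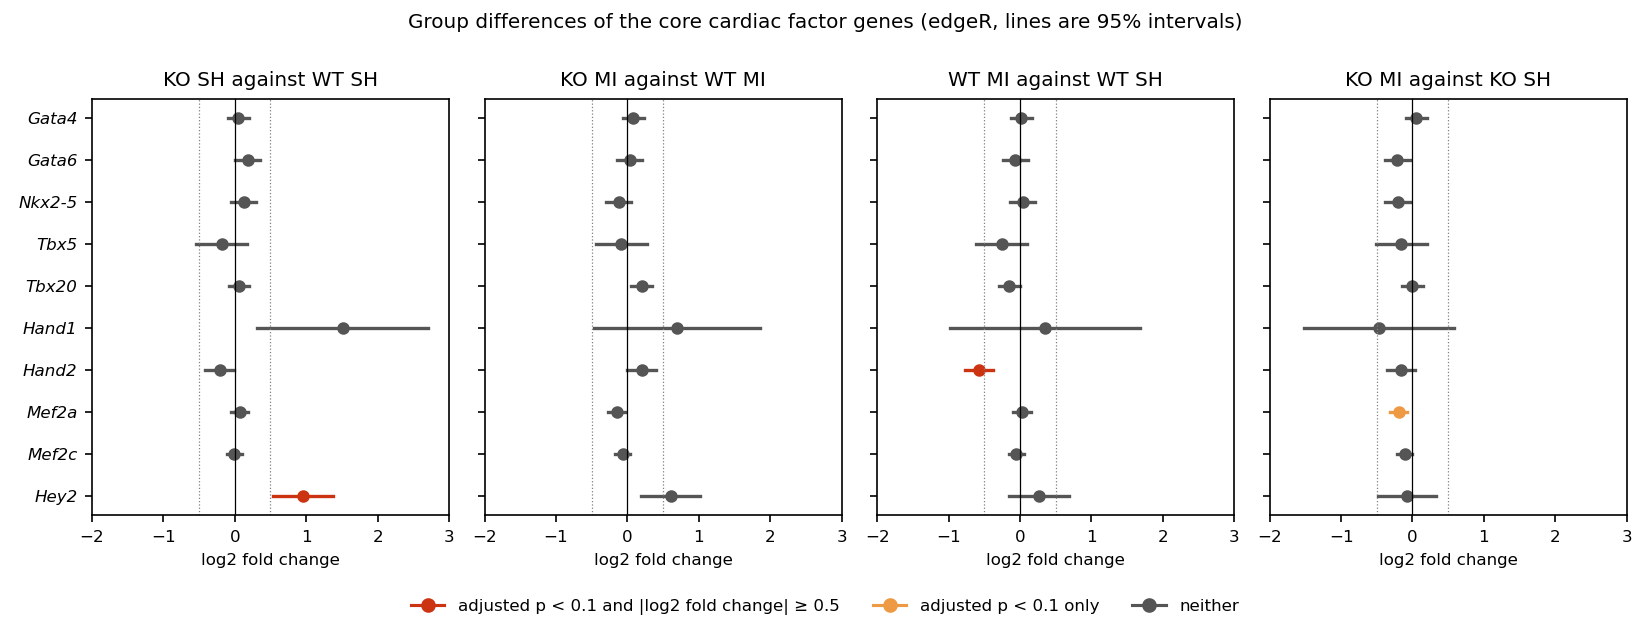
Log2 fold change of each gene in the 4 comparisons between groups (points) with 95% intervals from the edgeR fit (lines), and dotted lines at the minimum log2 fold change of 0.5 in either direction. Red marks the called *Hey2* (KO SH) and *Hand2* (WT MI), orange marks *Mef2a* (adjusted p only), and the wide intervals of *Hand1* come with its counts of 1 to 16 per library.

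The GATA factors activate genes of the sarcomere and natriuretic peptides and cooperate with NKX2-5 and TBX5. *Gata4* (ENSMUSG00000021944, chr14:63436362-63509141 in GRCm39, minus strand) had 57.9 ± 3.13 CPM in WT SH, 60.0 ± 2.04 CPM in KO SH, 58.8 ± 2.88 CPM in WT MI and 62.2 ± 7.39 CPM in KO MI (SD, n = 4). These groups overlapped in each comparison, and the log2 fold change lay between 0.02 and 0.08. The single high value of 73.0 CPM was in KO MI replicate 2. *Gata6* (ENSMUSG00000005836, chromosome 18, plus strand) had 40.7, 46.7, 46.9 and 45.4 CPM in WT SH replicates 1 to 4, and 50.6, 53.3, 49.1 and 50.6 CPM in KO SH replicates 1 to 4. Every KO SH library was above every WT SH library. The log2 fold change of 0.18 ± 0.08 (SE, 95% interval 0.01 to 0.36) had an adjusted p of 0.203 by edgeR. The exact permutation test (two-sided) gave 0.0286, the smallest p that 4 against 4 libraries allow. After infarction *Gata6* had 41.9 to 44.4 CPM in WT and 41.5, 39.3, 40.4 and 54.9 CPM in KO MI replicates 1, 2, 3 and 7, so that 3 of 4 KO MI libraries were below all WT MI libraries and replicate 7 was above them. The estimate in KO MI against KO SH was -0.21 (adjusted p 0.111). Without KO MI replicates 2 and 7 it was -0.32 (adjusted p 0.00238) there and -0.08 (adjusted p 0.717) between genotypes post-MI, with an interaction of -0.26 (adjusted p 0.0843). The antisense RNA *Gata6os* overlaps *Gata6* and was at 3.05 to 5.97 CPM.

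*Nkx2-5* (ENSMUSG00000015579, chr17:27057638-27063983, minus strand) encodes the homeodomain factor that partners with GATA4 and TBX5. It had 10.8 ± 0.838 CPM in WT SH, 11.7 ± 0.478 CPM in KO SH, 11.1 ± 0.722 CPM in WT MI and 10.2 ± 1.19 CPM in KO MI. The KO against WT difference was 0.13 ± 0.08 (SE) on the log2 scale after sham and -0.12 ± 0.08 post-MI, with the groups overlapping both times. The interaction, -0.25 (95% interval -0.50 to 0.00), had an adjusted p of 0.371.

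Of the T-box factors, TBX5 activates chamber and conduction genes, and TBX20 can repress as well as activate and is needed for chamber growth. *Tbx5* (ENSMUSG00000018263, chr5:119970733-120023284, plus strand) had 31.9, 33.8, 24.4 and 24.6 CPM in WT SH replicates 1 to 4 and 21.7, 13.4, 27.6 and 28.0 CPM in the KO MI libraries, in replicate order. The WT SH libraries thus formed a high and a low pair, and KO MI replicate 2 was the lowest of all 16 libraries. KO SH spanned 24.0 to 26.1 CPM and WT MI 21.5 to 28.5 CPM. No comparison of *Tbx5* passed the threshold, and its intervals were wide, reaching from -0.54 to 0.17 in KO SH and from -0.44 to 0.27 in KO MI against WT. *Tbx20* (ENSMUSG00000031965, chr9:24629434-24685599, minus strand) had 207, 201, 207 and 196 CPM in WT MI replicates 1 to 4 and 235, 258, 233 and 207 CPM in the KO MI libraries, in replicate order. The KO MI libraries lay above the WT MI libraries, with the lowest KO MI library barely above the highest WT MI library. The log2 fold change of 0.20 ± 0.07 (SE, 95% interval 0.06 to 0.35) had an adjusted p of 0.177 by edgeR and an exact permutation p of 0.0286, the smallest possible. Without KO MI replicate 7 it was 0.25 (adjusted p 0.0339), and without KO MI replicate 2, the highest, it was 0.15 (adjusted p 0.413). Without both it was 0.20 (adjusted p 0.192), and in the low-*Xist* libraries alone it was 0.09. After sham *Tbx20* had 224 ± 19.0 CPM in WT and 234 ± 11.9 CPM in *Lrrc10*-/-, a log2 difference of 0.06 (95% interval -0.08 to 0.20).

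HAND1 and HAND2 bind DNA at E-boxes as dimers with E proteins, and drive growth of the ventricles in the embryo. *Hand1* (ENSMUSG00000037335, chr11:57719531-57723644, minus strand) had between 1 and 16 counts per library, near the floor. Its counts in KO SH replicates 1 to 4 were 16, 4, 5 and 10, and in WT SH 6, 2, 3 and 1. These overlapped, with a log2 fold change of 1.51 ± 0.57 (SE), an adjusted p of 0.120 by edgeR and an exact permutation p of 0.0857. At this depth the size of a *Hand1* difference was not measurable with useful precision, since the 95% interval ran from 0.31 to 2.71. With the cardiomyocyte markers as scale (adjusted p 0.0472) or without KO SH replicate 3 (adjusted p 0.0920), *Hand1* was called by edgeR. Without KO SH replicate 1, the library with 16 counts, the log2 fold change was 1.09 (adjusted p 0.346). With a term for high *Xist* it was 1.16 (adjusted p 0.267).

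*Hand2* (ENSMUSG00000038193, chr8:57774011-57777677, plus strand) fell following MI in WT mice. It had 56.7, 46.1, 49.3 and 42.2 CPM in WT SH replicates 1 to 4, and 33.1, 32.1, 33.7 and 31.6 CPM in WT MI replicates 1 to 4. All 4 WT MI libraries lay within a narrow band below the lowest WT SH library. The log2 fold change was -0.57 ± 0.10 (SE, 95% interval -0.78 to -0.37), with an adjusted p of 0.00371 by edgeR and an exact permutation p of 0.0286, the smallest possible. Without WT SH replicate 1 it was -0.49 (adjusted p 0.0184), and with a term for high *Xist* it was -0.498 (adjusted p 0.0129), both short of the minimum fold change. The WT MI libraries with high *Xist*, replicates 2 and 4, were the lowest of the 4, at 32.1 and 31.6 CPM. In low-*Xist* libraries alone, the log2 fold change of *Hand2* was -0.54 (adjusted p 0.0630), and it was called. KO SH replicates 1 to 4 had 37.0, 42.0, 45.6 and 43.2 CPM, and KO MI replicates 1, 2, 3 and 7 had 37.1, 32.5, 35.6 and 45.1 CPM. In *Lrrc10*-/- mice these groups overlapped, and the log2 fold change post-MI was -0.16 (95% interval -0.36 to 0.04, adjusted p 0.310). Without KO MI replicate 7, the highest of these libraries, it was -0.26 (adjusted p 0.0397), past the adjusted p threshold but not the minimum fold change. With the replicate number as a block, which gives replicate 7 a term of its own, it was -0.28 (adjusted p 0.0355). The difference of the MI effects between genotypes was 0.41 ± 0.14 (SE), with an unadjusted p of 0.00704 and an adjusted p of 0.217 by edgeR, and so did not pass the threshold. It was 0.31 (adjusted p 0.126) without KO MI replicate 7. Between genotypes the log2 fold change was -0.21 after sham (adjusted p 0.194) and 0.20 post-MI (adjusted p 0.407). The latter was 0.10 (adjusted p 0.617) without KO MI replicate 7, and the former was -0.27 (adjusted p 0.0934) without WT SH replicate 4.

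Marker sums moved in WT MI beside *Hand2*. The 10 cardiomyocyte markers summed to 63079 to 69763 CPM in WT SH and 55182 to 58053 CPM in WT MI, with 0 of 10 called and 3 of 10 lower by adjusted p alone. The 6 mural cell markers summed to 801 to 903 CPM in WT SH and 669 to 786 CPM in WT MI, with 0 of 6 called, and those of endothelium to 1054 to 1074 and 905 to 1008 CPM, with 1 of 10 called, higher. Epicardial markers summed to 49.2 to 55.8 and 66.5 to 81.9 CPM, with 5 of 7 called higher. Fibroblast markers summed to 2230 to 2622 CPM in WT SH and 2698 to 3150 CPM in WT MI, with 0 of 9 called and 3 of 9 higher by adjusted p alone. Macrophage markers summed to 57.9 to 67.6 and 74.9 to 103 CPM, with 2 of 10 called higher. All these sums were apart between WT SH and WT MI, while those of erythroid, atrial, skeletal muscle and mitosis genes overlapped. All markers of the 6 lists whose sums were apart were above 0 in the WT libraries. In this comparison 2.78% of all genes were called and 5.31% passed by adjusted p alone. Relative to the cardiomyocyte markers, a scale on which the median of all genes was 0.18 in WT MI, *Hand2* was at -0.37 (adjusted p 0.0210), which did not reach the minimum fold change. The part of these cell types in the *Hand2* result was not tested. The antisense RNA *Hand2os1* overlaps *Hand2*, and reads of the pair can be told apart only if strand was used in counting, which is not given in the sources used here. *Hand2os1* had 13.8 to 15.7 CPM in WT SH and 11.5 to 14.5 CPM in WT MI, with a log2 fold change of -0.21 (adjusted p 0.348).

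The promoter of *Hand2* is shown because this was the factor gene called after MI. The RefSeq sequence (GRCm38.p6, chr8:57320733-57321032, plus strand) runs from 250 bases before to 50 bases after the start, and capitals mark the GATA core GATAA on either strand.
Hand2: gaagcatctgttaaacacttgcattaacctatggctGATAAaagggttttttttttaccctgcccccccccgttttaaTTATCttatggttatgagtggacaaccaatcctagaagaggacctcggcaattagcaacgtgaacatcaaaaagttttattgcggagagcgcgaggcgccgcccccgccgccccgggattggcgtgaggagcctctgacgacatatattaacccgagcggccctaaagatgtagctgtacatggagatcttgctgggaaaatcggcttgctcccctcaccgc
This promoter has a GC content of 50.3% and GATAA matches at positions -214 and -172. Of the 27025 RefSeq promoters of this length, 25.8% held GATAA on either strand. The match is a description of the letters, not evidence of binding.

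MEF2A and MEF2C bind A/T-rich motifs in muscle genes and are held in check by class IIa histone deacetylases. *Mef2a* (ENSMUSG00000030557, chr7:66880911-67022606, minus strand) had 457, 461, 452 and 465 CPM in KO SH replicates 1 to 4, and 436, 350, 401 and 420 CPM in KO MI replicates 1, 2, 3 and 7. Every KO MI library lay below every KO SH library, with replicate 2 lowest. The log2 fold change was -0.19 ± 0.06 (SE, 95% interval -0.31 to -0.07), with an adjusted p of 0.0397 by edgeR and an exact permutation p of 0.0286, the smallest possible. The difference passed the adjusted p threshold but not the minimum fold change. Without KO MI replicate 2 it was -0.13 (adjusted p 0.110), and without replicates 2 and 7 it was -0.14 (adjusted p 0.0717). The adjusted p was also above the threshold with cardiomyocyte scaling (0.127), in a fit of KO MI and KO SH alone (0.141) and in low-*Xist* libraries (0.353). In WT mice *Mef2a* had 421 to 449 CPM after sham and 436 to 462 CPM post-MI, a log2 fold change of 0.03 (95% interval -0.09 to 0.15). The interaction was -0.22 (95% interval -0.39 to -0.05, adjusted p 0.256). *Gm44668*, an unconfirmed transcript on the same strand inside *Mef2a*, had 7.58 to 9.04 CPM in KO SH and 4.43 to 6.28 CPM in KO MI (log2 fold change -0.63, adjusted p 0.0104), and the division of reads between it and *Mef2a* is uncertain. *Mef2c* (ENSMUSG00000005583, chr13:83652064-83815555, plus strand) was the steadiest member, with 122 ± 3.11 CPM in WT SH, 122 ± 6.21 CPM in KO SH, 118 ± 3.86 CPM in WT MI and 113 ± 5.54 CPM in KO MI. All of its log2 differences between groups were between -0.11 and -0.01, and the lowest bound of their 95% intervals was -0.21, in KO MI against KO SH.

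The *Mef2a* promoter is shown for its MEF2 motif, which few promoters carry (RefSeq, GRCm38.p6, chr7:67372809-67373108, minus strand, capitals mark the motif).
Mef2a: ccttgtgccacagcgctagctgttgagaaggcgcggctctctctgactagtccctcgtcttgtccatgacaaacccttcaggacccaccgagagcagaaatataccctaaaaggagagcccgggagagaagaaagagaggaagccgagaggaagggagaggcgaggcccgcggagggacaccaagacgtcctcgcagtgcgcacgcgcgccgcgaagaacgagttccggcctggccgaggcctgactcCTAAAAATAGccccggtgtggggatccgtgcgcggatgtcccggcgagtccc
The match begins at position -2, and 0.566% of all promoters held this pattern on either strand. Looser MEF2 patterns were not searched. As for *Hand2*, the match describes the letters and is not evidence of binding. GC content was 62.3%.

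*Hey2* (ENSMUSG00000019789, chr10:30708350-30718828, minus strand) was the only member called between genotypes, which was after sham. It had 13.4, 12.9, 18.6 and 14.2 CPM in WT SH replicates 1 to 4 (14.8 ± 2.61), and 34.4, 28.2, 24.6 and 27.4 CPM in KO SH replicates 1 to 4 (28.6 ± 4.11). The lowest KO SH library was above the highest WT SH library. *Hey2* was 1.94-fold higher in KO SH, a log2 fold change of 0.96 ± 0.20 (SE, 95% interval 0.53 to 1.38), with an adjusted p of 0.00795 by edgeR and an exact permutation p of 0.0286, the smallest possible. The KO SH libraries with high *Xist*, replicates 1 and 2, were higher than the low-*Xist* replicates 3 and 4. In low-*Xist* libraries alone, 4 WT SH against 2 KO SH, the log2 fold change was 0.82 (adjusted p 0.0684), and with a term for high *Xist* it was 1.05 (adjusted p 0.00965).

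Post-MI, *Hey2* had 20.1, 17.5, 18.0 and 15.6 CPM in WT MI replicates 1 to 4 and 26.0, 17.2, 22.9 and 42.8 CPM in KO MI replicates 1, 2, 3 and 7. Of the KO MI libraries 3 were above all WT MI libraries, while replicate 2 lay among them. The log2 fold change of 0.61 ± 0.20 (SE, 95% interval 0.19 to 1.02) had an adjusted p of 0.155 by edgeR and an exact permutation p of 0.114, and was not called. It depended on single libraries, being 0.77 (adjusted p 0.0316) without KO MI replicate 2, 0.31 (adjusted p 0.282) without KO MI replicate 7 and 0.45 (adjusted p 0.130) without both. These are the KO MI libraries with 78.9 and 128 CPM of skeletal muscle genes, 8 of which could be tested, 5 of them called higher between genotypes post-MI, beside 2 of 7 erythroid genes, and their part in the *Hey2* level was not tested. In the fit of all libraries, the KO effect post-MI and that after sham were not shown to differ. The interaction was -0.35 (95% interval -0.94 to 0.24, adjusted p 0.621). Without KO MI replicate 7 the interaction of *Hey2* was called, beside 840 of 19994 genes. The effect of MI itself on *Hey2* was 0.27 in WT mice (95% interval -0.15 to 0.69) and -0.08 in *Lrrc10*-/- mice (95% interval -0.49 to 0.33), and neither passed the threshold.

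**Figure D4:**
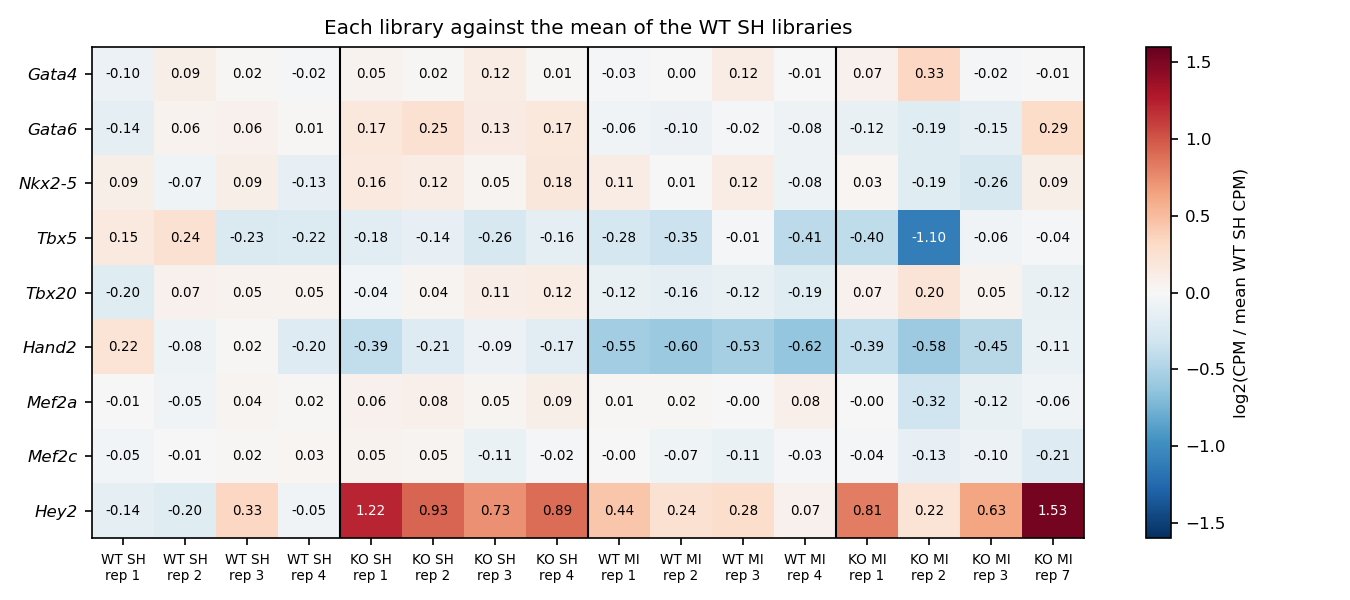
Log2 ratio of each library's CPM to the mean WT SH CPM, for the 9 members other than *Hand1* (rows) in the 16 libraries (columns), with red above and blue below the WT SH mean. The *Hey2* row is between 0.73 and 1.22 in KO SH and reaches 1.53 in KO MI replicate 7, the *Hand2* row is between -0.62 and -0.53 in WT MI, and *Tbx5* reaches -1.10 in KO MI replicate 2.

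Several marker sums were lower in every KO SH library than in every WT SH library. The cardiomyocyte sum was 63079 to 69763 CPM in WT SH and 55826 to 57298 CPM in KO SH (0 of 10 called, 6 of 10 lower by adjusted p alone). Endothelial markers, which include endocardial genes, summed to 1054 to 1074 and 972 to 1021 CPM, with 0 of 10 called. Mural cell markers summed to 801 to 903 and 703 to 759 CPM, with 1 of 6 called lower, and macrophage markers to 57.9 to 67.6 and 49.4 to 57.5 CPM, with 3 of 10 called lower. Erythroid genes summed to 528 to 731 and 417 to 498 CPM, with 1 of 7 called lower, and genes of mitosis to 469 to 582 and 393 to 445 CPM, with 0 of 10 called. The epicardial sum overlapped, at 49.2 to 55.8 and 55.5 to 63.0 CPM, with 4 of 7 called higher. Fibroblast and skeletal muscle sums also overlapped. Atrial genes summed to 17.1 to 98.1 CPM in WT SH and 15.4 to 29.9 CPM in KO SH, with 0 of 5 called. In this comparison 5.01% of all genes were called and 12.3% passed by adjusted p alone. All markers of the cardiomyocyte, epicardial and endothelial lists were above 0 in these libraries. Relative to the cardiomyocyte markers the median of all genes was 0.20 in KO SH, and 7 of 10 members and 24.6% of all genes passed the adjusted p threshold. *Hey2* was then at 1.15 (adjusted p 0.00319), and was the only member besides *Hand1* to reach the minimum fold change. The part of these cell types in the *Hey2* result was not tested.

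The *Hey2* promoter is shown because this was the member called between genotypes, with capitals marking the core TGGGAA of RBPJ, the DNA-binding protein of the Notch pathway, on either strand (RefSeq, GRCm38.p6, chr10:30842734-30843033, minus strand).
Hey2: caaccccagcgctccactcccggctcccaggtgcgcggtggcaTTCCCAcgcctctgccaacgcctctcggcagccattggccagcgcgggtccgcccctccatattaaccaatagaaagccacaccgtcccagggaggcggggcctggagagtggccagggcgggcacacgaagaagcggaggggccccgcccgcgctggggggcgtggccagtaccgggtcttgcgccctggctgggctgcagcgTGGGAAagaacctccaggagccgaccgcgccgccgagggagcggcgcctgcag
The matches are at positions -207 and -3 in a promoter with a GC content of 72.0%, and 25.5% of all promoters held this core. Promoter entries were found for 6 of the 10 members. Other motifs were searched in them on both strands. The E-box CANNTG was held by 72.1% of all promoters, and its variant CACGTG, which HEY proteins bind, by 7.24%. The core of T-box sites, GGTGT, was held by 41.6%. The core of NKX sites, AAGTG, was held by 46.5%. In the *Hand2* promoter a match of the NKX core overlaps an E-box at position -235.

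Over the 16 libraries, the genes whose log2 CPM was most like that of *Hey2*, among genes with a mean of at least 5 CPM, were *Meis1* (Pearson r 0.918), *Nav1* (r 0.918), ENSMUSG00000097136 (r 0.902), *Abca4* (r 0.895) and *Gm43258* (r 0.891). *Meis1* encodes a homeodomain factor known to restrain the cardiomyocyte cell cycle. Its log2 fold change in KO SH was 0.37, while that of *Abca4* was 1.55. The libraries share their groups, so these correlations carry the group differences and are given without a test.

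Of the Notch pathway, 17 genes were tested, among them receptors, ligands, *Rbpj* and the *Hes* and *Hey* targets. Between KO SH and WT SH 0 of 17 were called, beside 5.01% of all genes. Their median log2 fold change was -0.05, beside 0.01 over all genes. The other *Hey* genes, named after their values were seen, were not called, *Hey1* at -0.25 (adjusted p 0.365) and *Heyl* at -0.18 (adjusted p 0.358). Between genotypes post-MI and between WT MI and WT SH 0 of 17 were called by edgeR, beside 1.73% and 2.78% of all genes. In KO MI against KO SH 1 of 17 was called, the ligand gene *Dll1*, at -0.73 ± 0.15 (SE, adjusted p 0.00517), beside 7.42% of all genes.

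Other cardiac factors and cofactors numbered 25 of 28 tested. Between KO SH and WT SH 1 of 25 was called higher and 1 of 25 lower, beside 5.01% of all genes called. In KO SH *Irx3*, a homeobox gene of the conduction system, was higher at 0.58 ± 0.14 (SE, adjusted p 0.0164 by edgeR) and *Tbx18*, a T-box gene of epicardium and sinus node, was lower at -0.54 ± 0.14 (adjusted p 0.0225). *Tbx18* was also called between genotypes post-MI, at -0.52 ± 0.13 (adjusted p 0.0523), as 1 of 25, beside 1.73% of all genes. Following MI 0 of 25 were called in WT mice, beside 2.78% of all genes, and 0 of 25 in *Lrrc10*-/- mice, beside 7.42%. The median of this list was -0.01 in KO SH and 0.03 in KO MI against WT.

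Of the MEF2 regulators, histone deacetylases, kinases and calcineurin subunits, 0 of 14 were called in any of the 4 comparisons between groups. Of all genes, 1.73% to 7.42% were called in these comparisons. By adjusted p alone 2 of 14 were lower in KO MI against KO SH, where 17.5% of all genes passed in either direction. Of 9 bHLH factors that can dimerize with or sequester HAND partners, *Id1*, an inhibitor of bHLH factors, was lower in KO SH at -0.52 ± 0.11 (SE, adjusted p 0.00969 by edgeR). *Twist1* was higher in KO MI against KO SH at 0.62 ± 0.19 (adjusted p 0.0443). Each was the 1 of 9 called in its comparison, beside 5.01% and 7.42% of all genes. In the other 2 comparisons between groups 0 of 9 were called, beside 1.73% and 2.78% of all genes.

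Called genes post-MI were also found among known targets of these factors. Of 19 tested targets, *Nppa*, which encodes atrial natriuretic peptide, was higher post-MI in *Lrrc10*-/- than in WT mice by 2.52 ± 0.60 on the log2 scale (SE, adjusted p 0.0379 by edgeR), and *Ankrd1*, a muscle ankyrin repeat gene, by 1.10 ± 0.26 (adjusted p 0.0314). These were the 2 of 19 called there, beside 1.73% of all genes. Atrial markers summed to 27.5 to 116 CPM in KO MI and 21.1 to 51.5 CPM in WT MI, which overlapped. Of these markers 0 of 5 were called between genotypes post-MI, with a median log2 fold change of 1.41. The part of atrial tissue in the *Nppa* result was not tested. The mean log2(CPM + 0.5) of the 20 listed targets was 8.75 in KO MI replicate 2. It was 8.28, 8.30 and 8.10 in KO MI replicates 1, 3 and 7, and 8.08 to 8.14 in WT MI. Fits of single target genes with a library left out were not examined. In KO MI against KO SH 5 of 19 rose and 1 of 19 fell, beside 7.42% of all genes called. Those named by rule were *Slc8a1* (0.53), *Nppa* (3.63) and *Xirp2* (2.01), which rose, and *Pln* (-0.54), the inhibitor of the sarcoplasmic reticulum calcium pump, which fell. The median of the list was 0.30 beside -0.01 over all genes. Between KO SH and WT SH and between WT MI and WT SH 0 of 19 were called, beside 5.01% and 2.78% of all genes. Genes of many marker lists were also called higher in KO MI than in KO SH. These were 10 of 10 mitosis, 9 of 10 macrophage, 7 of 7 erythroid and 7 of 8 tested skeletal muscle genes. They were joined by 3 of 9 fibroblast, 3 of 7 epicardial, 2 of 5 atrial, 2 of 6 mural cell and 1 of 10 endothelial markers, with 0 of 10 cardiomyocyte markers called. Summed mitosis genes went from 393 to 445 CPM in KO SH to 577 to 802 CPM in KO MI, and macrophage markers from 49.4 to 57.5 CPM to 62.8 to 132 CPM. The part of these genes in the target results was not tested.

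The *Lrrc10*-/- libraries post-MI were the most variable for most of these factors, as for the largest share of all genes. The SD of CPM was largest in KO MI for 7 of the 10 members, beside 45.3% of all genes tested. The next largest share of all genes was 27.3%, in WT SH. Within KO MI, replicate 7 was the highest library for 5 members and the lowest for 3, and replicate 2 was the lowest for 5 and the highest for 2. These extremes were not counted over all genes, and the members share the libraries. They cannot be read as particular to these factors.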

How the data were processed

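The authors deposited RSEM expected counts per gene, unnormalized and as whole numbers, for 16 strand-specific, rRNA-depleted libraries. The paper's methods name Skewer, STAR and RSEM with GRCm39, whereas the submitters' processing notes list cutadapt 3.4, HISAT2 2.2.1 and RSEM 1.1.17, and this difference could not be resolved. RSEM divides reads that match several genes. Names and positions came from GENCODE M39, which matched 47772 of 51912 identifiers (unmatched: 0.57% to 0.786% of counts).

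The members and lists were chosen with earlier results of these data known. Groups came from the sample labels. Genes reaching 10 counts, summed over the libraries, in all 4 groups were fitted in edgeR 4.0.16 (R 4.3.3, limma 3.58.1) with TMM and 1 coefficient per group over all 16 libraries, followed by two-sided quasi-likelihood F-tests with Benjamini-Hochberg adjustment. Exact permutation tests used log2(CPM + 0.5). Intervals cover the fitted spread between mice. Named genes were the members, their overlapping neighbours, the called list genes (at most 4 per list and comparison, smallest p, mean of at least 1 CPM) and the 5 genes most like a member called between genotypes. The fit was tested on simulated data. Alternatives included DESeq2 1.42.0, other scalings and filters, an *Xist* term, a replicate block and each library left out.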

Additional observations from a re-analysis of the deposited data

Results flagged for a closer look

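In 40 groups of 4 libraries (10 genes in 4 groups), 2 held a library whose gap to its nearest neighbour, divided by the range of the group, exceeded Dixon's 95% critical value. *Gata6* was at 54.9 CPM in KO MI replicate 7, a ratio of 0.861, and *Tbx20* was at 196 CPM in WT SH replicate 1, a ratio of 0.919. Chance alone flags about 1 in 20 groups, and 2 of 40 is that share.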

How the results depend on the processing

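Of 981 member values recomputed under alternatives, 971 kept their call, 3 were no longer called, 7 became called and 0 called values turned sign, while 48 values not called under either setting did. *Hey2* was called in KO SH under every alternative. The number of called members in KO SH against WT SH was 2 (*Hand1* and *Hey2*) when scaled to the cardiomyocyte markers, and 1 to 2 with a library left out, *Hand1* joining without KO SH replicate 3. For KO MI against WT MI it was 1 (*Hey2*, adjusted p 0.0714) with no filter on low counts, and 0 to 1 with a library left out, *Hey2* being called without KO MI replicate 2. For WT MI against WT SH it was 0 with cardiomyocyte scaling and with the *Xist* term, and 0 to 1 with a library left out, *Hand2* dropping out without WT SH replicate 1. For KO MI against KO SH it was 1 (*Mef2a*) with no minimum fold change. By that rule it was 5 (*Gata6*, *Nkx2-5*, *Hand2*, *Mef2a* and *Hey2*) without KO MI replicate 7 and also with the replicate block, 3 without KO MI replicate 1, 2 with a robust fit, and 0 without KO MI replicate 2, with cardiomyocyte scaling, in the 2 groups alone and in low-*Xist* libraries. For the interaction it was 0 to 1 with a library left out, *Hey2* being called (-0.65) without KO MI replicate 7.

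The correlation of same-numbered deviations was between -0.038 and 0.112. Differently numbered libraries were not compared, so these values cannot decide whether replicate numbers paired the mice. With the replicate number as a block, 2 members were called in KO SH (*Hand1* and *Hey2*) and 1 in the interaction (*Hey2* at -0.69, adjusted p 0.0511), where 689 genes were called in place of 5. Number 7 occurs only in KO MI, so the block gives KO MI replicate 7 a term of its own. That library then no longer informs the group differences, much as when it is left out. The causes of these shifts were otherwise not tested. With 4 mice per group and *Hand1* at 1 to 16 counts, differences of that gene are limited by depth.

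Counts over all genes moved more than those of the members. In the interaction 5 genes were called by edgeR, against 211 by DESeq2, 195 with cardiomyocyte scaling, 39 with no filter, 840 without KO MI replicate 7 and 369 without KO MI replicates 2 and 7. Cardiomyocyte scaling raised the calls from 1010 to 1897 in KO SH and from 560 to 1453 in WT MI, both against WT SH. In the low-*Xist* libraries alone, with 2 libraries in 3 of the groups, the calls between sham genotypes were 429 and those between WT MI and WT SH were 203.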
